A study of Bos taurus with 6 samples.

Results

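The Notch pathway genes described here are the receptors NOTCH1, NOTCH2 and NOTCH3, the ligands JAG1, JAG2 and DLL1, the target repressors HES1, HEY1 and HEYL, and the inhibitor NUMB. They were found by matching these symbols to the gene names of the deposited expression table, which gave all 10 genes out of 17663. RNA was sequenced from bovine fetal fibroblasts (bEFs), connective tissue cells grown from cattle fetuses of 50–60 days. FT cells came from 3 fetuses carrying the exogenous fat-1 transgene, which encodes a desaturase of Caenorhabditis elegans that turns n-6 into n-3 polyunsaturated fatty acids, while the WT group was 3 wild-type fetuses of Luxi cattle, with 1 library per fetus. The promoter that drives fat-1, the founder line and the breed of the FT fetuses are not given in the sources used here. The comparison of FT with WT cells asks how gene expression differs between bEFs with and without the transgene.

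Notch receptors are cut in the membrane after a ligand on a neighbouring cell binds them, and the freed intracellular domain enters the nucleus. There it joins the DNA-binding protein RBPJ and a Mastermind coactivator to switch on target genes, chiefly the HES and HEY repressors. In embryonic mesenchyme the pathway is known for its part in cell fate choices, among them those of muscle, cartilage and vessel wall cells.

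Total counts were 63366834, 48167642 and 54204446 in FT_1, FT_2 and FT_3, and 69777641, 51310741 and 54271927 in WT_1, WT_2 and WT_3. FT_1 stood apart from the other libraries of its group. The standard deviation of the log2 difference between libraries over the tested genes was 1.40 between FT_1 and FT_2 and 1.41 between FT_1 and FT_3, against 0.51 for FT_2 with FT_3 and 0.45–0.53 among the WT libraries. The result of each Notch gene is therefore given with and without FT_1. To look for a library deposited more than 1 time, pairs were compared by their mean chi-square per gene, which was at least 11.7, so all 6 libraries were counted separately. Libraries of different fetuses would differ beyond sampling noise in any case.

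NOTCH1 was the member with the clearest rise, and HES1, the most abundant target repressor, fell in the same cells. The edgeR quasi-likelihood test was fitted over 13482 genes and called a gene at a Benjamini-Hochberg adjusted p under 0.05. It called 5 of the 10 Notch genes higher in FT cells (NOTCH1, NOTCH2, JAG2, DLL1 and HEYL), where 20.1% of all tested genes were called higher. HES1 was the 1 gene called lower, against 18.9% of all tested genes, and NOTCH3, JAG1, HEY1 and NUMB were not called. In either direction 39% of the tested genes were called. All 10 passed the filter on low counts, but JAG2 and HEYL passed it through the FT libraries alone, so their calls say little about how often the pathway changed. Of the other 8, 3 (37.5%) were called higher, beside 19.9% of the 13201 tested genes that reached the count minimum in both groups. The median log2 fold change was 0.91 over the other 8 and 1.46 over all 10, against 0.03 over all 13482 tested genes. That base includes genes past the minimum in 1 group only. Among the 8, HEY1 reached the minimum in 3 FT libraries but only 2 WT libraries. Without FT_1 the test called 6 of the 10 higher, against 30.6% of 13765 genes, and 1 lower, against 31.5%. The number called higher was 2 without FT_2, 2 without FT_3, 1 without WT_1, 1 without WT_2 and 3 without WT_3. The share of all tested genes called higher fell in those fits too, to 15.3%, 15.6%, 11%, 11.6% and 13.0% in the same order. With scaling by total count in place of TMM, 2049 genes were called higher and 3399 lower, against 2714 and 2547, and the median of all genes moved from 0.03 to -0.12 on the log2 scale.

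**Figure D1:**
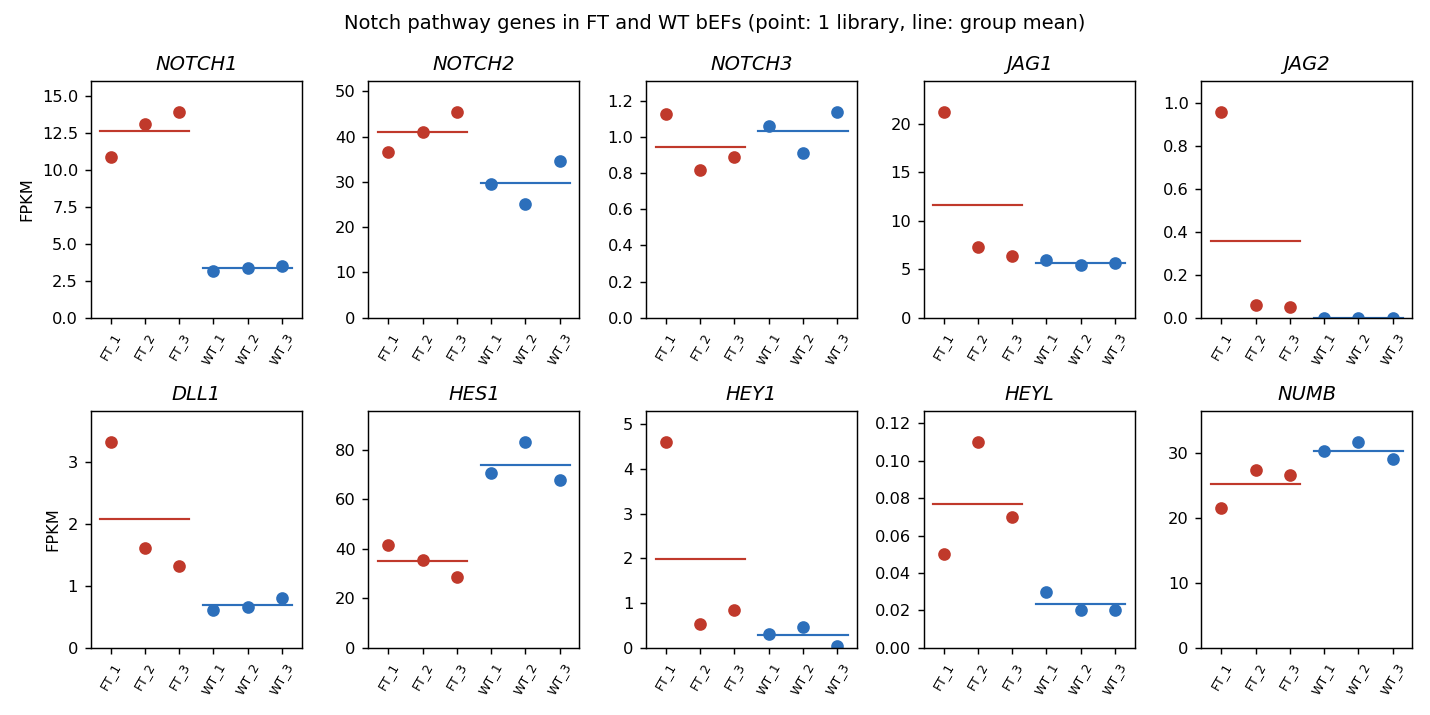
Level of each Notch gene in FPKM (fragments relative to gene length and library total) in each library, with 1 point per library and a line at the mean of 3 libraries. NOTCH1 lies at 10.9–13.9 in FT cells and 3.16–3.52 in WT cells, HES1 at 28.5–41.4 and 67.7–83.0, and JAG1, JAG2, DLL1 and HEY1 are highest in FT_1.

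By FPKM, the order of levels differed between the groups. In WT cells HES1 was first with a mean of 73.7, followed by NUMB at 30.3 and NOTCH2 at 29.7, whose ranges overlapped. JAG1 at 5.66, NOTCH1 at 3.35, NOTCH3 at 1.04, DLL1 at 0.69, HEY1 at 0.28 and HEYL at 0.023 followed without overlap between neighbours, and JAG2 was listed at 0. FT cells had NOTCH2 at 41.1 and HES1 at 35.1 at the top, with overlapping ranges, then NUMB at 25.1 with a range clear of both its neighbours. NOTCH1 at 12.6 and JAG1 at 11.6 overlapped each other, because JAG1 spread from 6.40 to 21.2 over the FT libraries. Below them DLL1, HEY1, NOTCH3, JAG2 and HEYL each overlapped the next gene in the order.

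NOTCH1 (ENSBTAG00000022799) lies on the minus strand of chromosome 11, from 103935364 to 103980160 in the authors' table. It encodes the receptor for which the pathway is best known in development. Its level was 10.9, 13.1 and 13.9 FPKM in FT_1, FT_2 and FT_3, and 3.16, 3.37 and 3.52 FPKM in WT_1, WT_2 and WT_3. All FT libraries lay well above all WT libraries, and FT_1 was the lowest of the FT group. The counts behind these levels were 5800, 5296 and 6355 in FT cells and 1852, 1450 and 1600 in WT cells. The fold change was 4.21, or 2.07 ± 0.13 on the log2 scale (SE, n = 3 per group), with a 95% interval of 1.76–2.38 and an edgeR adjusted p of 5.23e-04. Leaving out FT_1 gave 2.18, so the rise did not rest on that library. NOTCH1 was called under each of the 17 alternatives tried, with values of 1.64–2.18 and adjusted p from 6.18e-40 to 0.0135. It was a long gene, at the 98.2 percentile of relative length, and log2 fold changes rose weakly with length over 11968 genes (Spearman's rho 0.190, across genes, which are not independent). With that trend removed, an alternative chosen after seeing the data, its log2 fold change was 1.74.

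NOTCH2 (ENSBTAG00000007909, plus strand of chromosome 3, 23163504 to 23368572) encodes a receptor of the same build and was the most abundant one in both groups. Its level was 36.7, 41.1 and 45.4 FPKM in the FT libraries and 29.5, 25.1 and 34.6 FPKM in the WT libraries. The groups did not overlap, but the lowest FT value stood close to the highest WT value. The log2 fold change was 0.63 ± 0.16 (SE, n = 3 per group), with an edgeR adjusted p of 0.0230, and 0.71 without FT_1. This call was less firm than that of NOTCH1. It ended in 7 of 17 alternatives, among them those without FT_2 (adjusted p 0.0637), FT_3 (0.0700), WT_1 (0.0884) or WT_2 (0.0756). Removing the length trend brought the log2 fold change to 0.30 (adjusted p 0.118, the highest of a range that began at 5.16e-04).

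NOTCH3 (ENSBTAG00000043971, plus strand of chromosome 7, 7910635 to 7950476) encodes a receptor known best from the mural cells of vessels. It was low in every library, at 1.13, 0.82 and 0.89 FPKM in FT cells and 1.06, 0.91 and 1.14 FPKM in WT cells. The groups overlapped. The log2 fold change was 0.03 ± 0.17 (SE, n = 3 per group), with a 95% interval of -0.40 to 0.46, so that changes within those bounds could not be told from none. Its sign turned under scaling by total count (-0.12) and without FT_1 (-0.10).

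The other receptor, NOTCH4, which is known mainly from endothelium, was below 0.5 FPKM throughout. Its level was 0.15, 0.23 and 0.16 FPKM in FT cells and 0.42, 0.37 and 0.35 FPKM in the WT libraries. This was a log2 fold change of -0.92 ± 0.28 (SE; adjusted p 0.0426). Its call ended in 7 of 14 alternatives, among them those without FT_3 (0.12), WT_1 (0.146), WT_2 (0.112) or WT_3 (0.0986), in a range that began at 0.0141. Summed over the 4 receptors, the level was 48.8, 55.2 and 60.4 FPKM in FT cells and 34.2, 29.7 and 39.6 FPKM in WT cells. The makeup of this sum differed between the groups as well. NOTCH1 held 22.2–23.7% of the receptor FPKM in the FT libraries, against 8.89–11.3% in the WT libraries, while NOTCH2 held 74.4–75.2% against 84.4–87.3%. The ratio of NOTCH1 to NOTCH2 was 0.307 ± 0.011 (SD, n = 3) in FT cells and 0.114 ± 0.018 (SD, n = 3) in WT cells. An exact two-sided permutation test of this ratio gave p = 0.1, the smallest that 3 against 3 libraries allow. The separate values of NOTCH1 and NOTCH2 already set this outcome, so the test adds nothing to them. FT_1 was close to FT_2 and FT_3 in this ratio (0.296, 0.318 and 0.306), although it stood apart over the whole table.

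**Figure D2:**
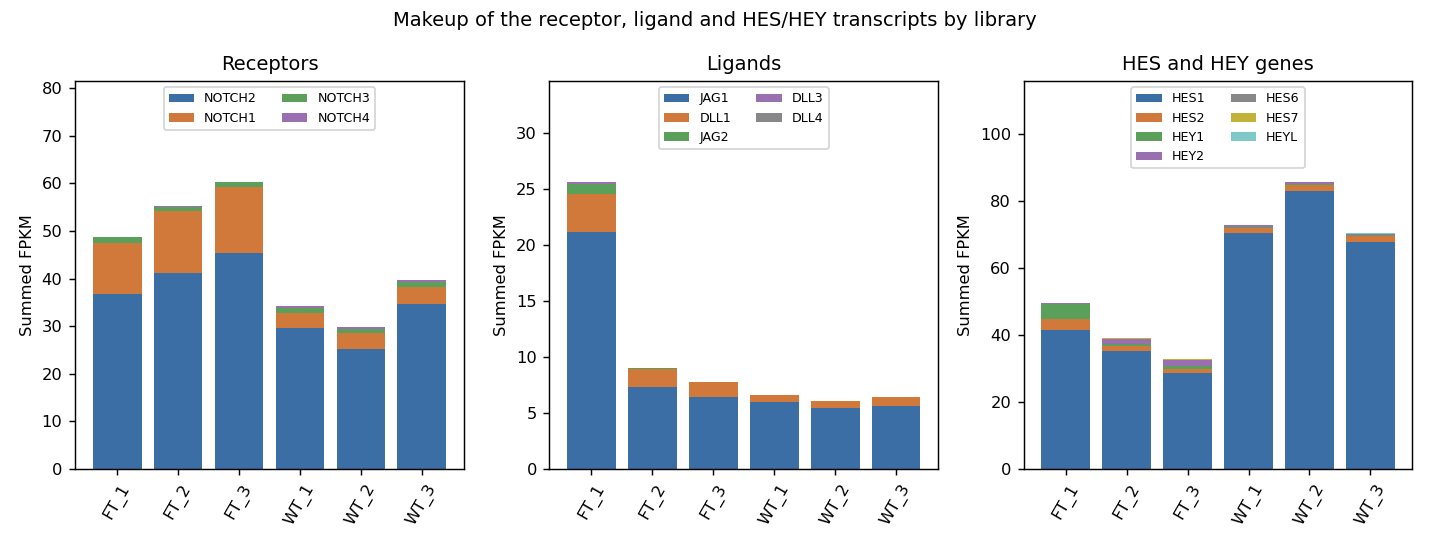
Summed FPKM of the 4 receptors, the 5 ligands and the 7 HES and HEY genes in each library, with bars split by gene. NOTCH1 takes a larger part of the receptor bar in FT cells, the ligand bar of FT_1 reaches 25.7, and HES1 makes up 83.5–96.7% of the HES and HEY bars.

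JAG1 (ENSBTAG00000012817, minus strand of chromosome 13, 3939809 to 3984202), a ligand of the Jagged class, was the most abundant ligand. Its level was 21.2, 7.31 and 6.40 FPKM in the FT libraries and 5.97, 5.40 and 5.61 FPKM in the WT libraries. The groups did not overlap, yet FT_1 was 3.09 times the mean of FT_2 and FT_3, which lay just above the WT range. With all libraries the log2 fold change was 1.19 ± 0.46 (SE, n = 3 per group), and the edgeR adjusted p of 0.0886 missed the threshold. Without FT_1 the difference shrank to 0.45 ± 0.09 on the log2 scale and passed it (adjusted p 0.00165, the lowest of a range that reached 0.260). DESeq2 called it with all libraries (adjusted p 0.0187). A gene named only by its identifier, ENSBTAG00000049787, overlaps JAG1 on the opposite strand. Its counts were 8, 17 and 9 in FT cells and 16, 12 and 11 in WT cells, small beside those of JAG1, and none of the other 9 Notch genes overlapped a gene of the table.

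DLL1 (ENSBTAG00000031476, minus strand of chromosome 9, 103923192 to 103932600), a ligand of the Delta class, was 3.33, 1.61 and 1.32 FPKM in the FT libraries and 0.61, 0.66 and 0.80 FPKM in the WT libraries. Every FT library was above every WT library, with FT_1 at 2.27 times the mean of FT_2 and FT_3. The fold change was 3.33, or 1.73 ± 0.38 on the log2 scale (SE, n = 3 per group; edgeR adjusted p 0.0153). Leaving out FT_1 gave 1.25 ± 0.20 (adjusted p 4.00e-04), so a smaller rise was present in the other FT libraries. The call ended in 4 of 17 alternatives, among them those without WT_1 (0.0694) or WT_2 (0.0675), within a range of adjusted p that began at 1.26e-04.

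JAG2 (ENSBTAG00000007319, minus strand of chromosome 21, 69505932 to 69519541), the second Jagged ligand, had counts of 261, 14 and 12 in FT cells and no count in any WT library. These correspond to 0.96, 0.06 and 0.05 FPKM in FT cells, so most of the JAG2 signal came from FT_1. Against a floor of 3 counts per WT library, JAG2 was at least 29.5-fold higher in FT cells, and at least 4.90-fold higher without FT_1. The floor covers counting error only. The edgeR adjusted p was 0.0457. Its call ended in 7 of 13 alternatives, among them those without FT_2 (0.0634), FT_3 (0.0557), WT_1 (0.0977), WT_2 (0.0973) or WT_3 (0.0924), in a range of 0.00367–0.328. DLL3 and DLL4, the remaining Delta ligands, were at most 0.16 and 0.02 FPKM in any library and were not tested.

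Summed over the 5 ligands, the level was 25.7, 8.98 and 7.77 FPKM in FT cells and 6.61, 6.06 and 6.41 FPKM in WT cells. FT_1 thus carried most of the difference in ligand level. DLL1 held 13.0%, 17.9% and 17.0% of this sum in FT cells and 9.23%, 10.9% and 12.5% in WT cells. These shares did not overlap between the groups (exact permutation p = 0.1, the smallest possible).

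HES1 (ENSBTAG00000000569, minus strand of chromosome 1, 73362759 to 73365438) encodes the bHLH repressor that is the classical direct target of Notch. Its level was 41.4, 35.3 and 28.5 FPKM in the FT libraries and 70.3, 83.0 and 67.7 FPKM in the WT libraries. Every FT library lay below every WT library, and here FT_1 was the FT library nearest to WT cells. By edgeR the fold change was 1.89 towards WT cells. The log2 fold change was -0.91 ± 0.15 (SE, n = 3 per group), with a 95% interval of -1.28 to -0.55 and an edgeR adjusted p of 0.00586. Without FT_1 the log2 fold change was -1.04. The fall was called at an adjusted p of 3.20e-06 to 0.0276 under all 17 alternatives except the rule of the study's methods, which asks for a log2 fold change beyond 1.

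Receptor and target therefore moved in opposite directions in the same libraries. The ratio of HES1 to NOTCH1, both in FPKM, was 3.82, 2.70 and 2.05 in FT cells and 22.3, 24.6 and 19.2 in WT cells. Its mean was 7.72 times as high in WT cells. The ratio was not tested, since the separate values of both genes already set its direction. In bulk RNA, fewer cells that express a gene and less RNA of it per cell cannot be told apart.

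HEY1 (ENSBTAG00000015717, minus strand of chromosome 14, 42969172 to 42972066), a repressor of the Hairy-related class induced by Notch, was 4.60, 0.53 and 0.84 FPKM in FT cells and 0.32, 0.47 and 0.05 FPKM in WT cells. The counts were 391, 35 and 61 against 30, 32 and 4. FT_1 was 6.72 times the mean of FT_2 and FT_3, and FT_2 lay only just above the highest WT value. The log2 fold change of 2.96 ± 1.10 (SE, n = 3 per group) missed the threshold of edgeR (adjusted p 0.0775), as did that of 1.47 ± 0.70 without FT_1 (0.0937). DESeq2 called it (adjusted p 0.00974, in a range up to 0.210).

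HEYL (ENSBTAG00000008688, plus strand of chromosome 3, 106442589 to 106458224), another gene of that class, was close to the limit of detection. Its counts were 12, 19 and 14 in FT cells and 8, 4 and 4 in WT cells, or 0.05, 0.11 and 0.07 FPKM against 0.03, 0.02 and 0.02 FPKM. The FT values were all higher, by a log2 fold change of 1.77 ± 0.53 (SE, n = 3 per group; edgeR adjusted p 0.0424), and by 1.99 without FT_1. That call was lost in 11 of 14 alternatives, among them those without FT_2 (0.140), FT_3 (0.0943), WT_1 (0.106), WT_2 (0.136) or WT_3 (0.138), in a range of 0.0329–0.183, so the rise rested on few counts.

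Among the 9 listed HES and HEY genes, 7 were in the table and 6 were tested. Of these 1 was called higher and 1 lower (16.7% each, beside 20.1% and 18.9% of all tested genes). The gene called higher was HEYL. Of the 5 that reached the count minimum in both groups none was called higher and 1, HES1, lower (20%). The shares of all tested genes past that minimum in both groups were 19.9% higher and 18.5% lower. HES4 and HES5 were not analysed here. HEY2, the remaining Hairy-related gene, was 0.23, 1.61 and 1.81 FPKM in FT cells and 0.40, 0.58 and 0.40 FPKM in WT cells. It was named after its values were seen, because FT_1 was low where it was high for HEY1. Its log2 fold change was 1.56 ± 0.73 (SE; adjusted p 0.141), and without FT_1 it was called higher (2.06 ± 0.25 (SE), adjusted p 6.63e-05, in a range up to 0.357), which made 2 of the 6 called higher, in a fit that called 30.6% of all tested genes higher. The summed HES and HEY level was 49.6, 39.1 and 32.9 FPKM in FT cells and 72.9, 85.9 and 70.3 FPKM in WT cells, and HES1 supplied 83.5%, 90.2% and 86.7% of it in FT cells against 96.3–96.7% in WT cells. The sum therefore followed HES1.

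NUMB (ENSBTAG00000011683, minus strand of chromosome 10, 84739671 to 84901657) encodes an adaptor that sends Notch receptors to degradation. Its level was 21.6, 27.3 and 26.6 FPKM in FT cells and 30.2, 31.7 and 29.1 FPKM in WT cells. The FPKM values did not overlap, but the TMM-scaled counts did. The log2 fold change was -0.11 ± 0.12 (SE, n = 3 per group), with a 95% interval of -0.40 to 0.18 and an edgeR adjusted p of 0.50. No change was detected, and without FT_1 the value was 0.001.

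By TMM-scaled counts, all FT libraries were above all WT libraries for 7 of the 10 Notch genes and below them for HES1. JAG2 and HEYL, which passed the filter through the FT libraries alone, are among the 7. Without them it was 5 of 8 above and 1 below, against 28.3% and 29.4% of all tested genes. Unlike the 8, that base includes genes past the count minimum in 1 group only. NOTCH3 and NUMB overlapped. The spread within the FT group differed widely between the members. The coefficient of variation of FPKM over the FT libraries was 10.7% for NOTCH2, 12.5% for NOTCH1 and NUMB, 17.2% for NOTCH3 and 18.4% for HES1. It was 39.8% for HEYL, 52.1% for DLL1, 71.3% for JAG1, 114% for HEY1 and 147% for JAG2. In WT cells the coefficients were 5.09% for JAG1, 14.3% for DLL1, 24.7% for HEYL and 76.0% for HEY1, so HEY1 was uneven in both groups.

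**Figure D3:**
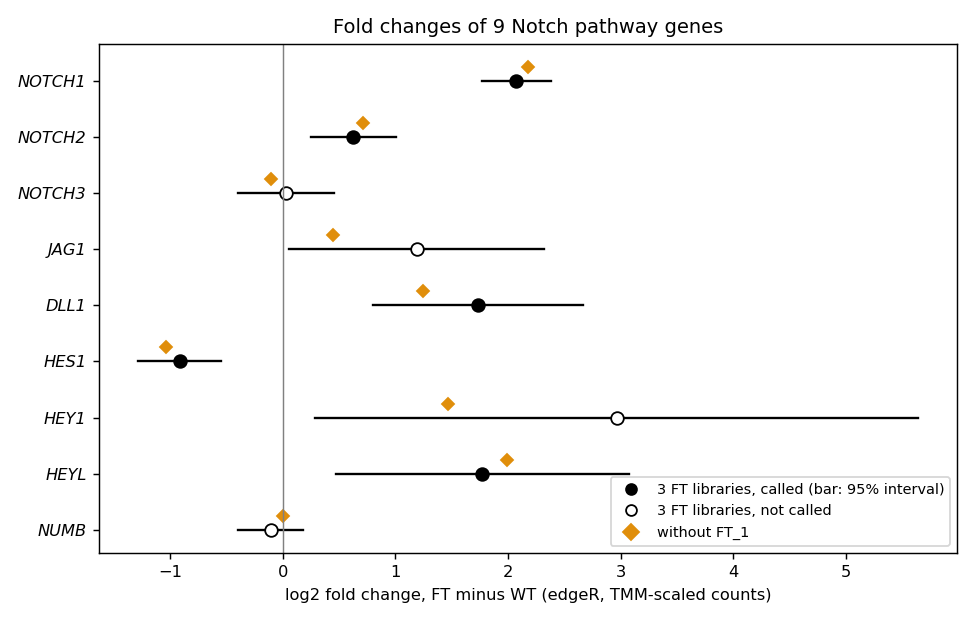
Log2 fold change (FT minus WT) of 9 Notch genes from edgeR with all libraries (circles, filled where called, bars showing the 95% interval) and without FT_1 (diamonds); JAG2, at 0 in WT cells, is left out. NOTCH1 and HES1 hardly move without FT_1 (2.18 and -1.04), while JAG1 goes from 1.19 to 0.45 and HEY1 from 2.96 to 1.47.

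Markers of cell types were read in the same libraries. Of the 10 fibroblast markers, 10 were in the table and none was under 1 FPKM in any library. Their summed level was 6828, 17047 and 16783 FPKM in FT cells and 17821, 17272 and 17360 FPKM in WT cells, and VIM had the highest mean over the 6 libraries, though not the highest level in FT_1 or FT_2. FT_1, the library with the high JAG1, JAG2, DLL1 and HEY1, thus had the lowest fibroblast sum. That sum is carried by a few very abundant genes, and not all of the list was low in FT_1, where PDGFRA (218 FPKM) and THY1 (413 FPKM) were at their highest. PDGFRA was the 1 marker of the 10 that was called (higher, log2 fold change 1.06, adjusted p 0.00530), beside 20.1% of all tested genes called higher and 18.9% lower. Without FT_1, 5 of the 10 were called higher and 1, VIM, lower (log2 fold change -0.79, adjusted p 1.06e-05). In that fit 30.6% of all tested genes were called higher and 31.5% lower. FT_1 also had the highest epithelial sum (6 of 6 markers in the table), at 142 FPKM against 11.9 and 13.0 in FT_2 and FT_3 and 10.3, 7.92 and 14.2 in WT cells. KRT8, which had the highest mean over the 6 libraries through FT_1 alone, was 84.1, 0.95 and 0.61 FPKM in FT cells and listed at 0 in WT cells, and EPCAM was 0.57 FPKM in FT_1 and listed at 0 elsewhere. The WT sum was nearly all CDH1 (7.83–13.9 FPKM). CLDN4 was the 1 epithelial marker called of 4 tested (higher, log2 fold change 4.22, adjusted p 0.00184), or 25% beside 20.1% of all tested genes. It was level over the FT libraries, at 3.39–3.82 FPKM against 0.09–0.33 FPKM in WT cells. Without FT_1, 3 of the 4 were called higher, beside 30.6% of all tested genes. KRT8 (adjusted p 3.67e-05) and KRT18 (0.00109) were then among them, both without a count in WT cells, so they passed the filter through the FT libraries alone. Mesothelial markers (3 of 5 in the table) summed to 200 FPKM in FT_1, 45.0 and 46.3 in FT_2 and FT_3 and 2.32, 3.48 and 3.34 in WT cells, nearly all of it MSLN, while the gene WT1 was listed at 0 in the FT libraries. Their part in the ligand and HEY1 results was not tested.

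Endothelial cells and the mural cells of vessels use Notch strongly, so their markers were read beside the receptors. Endothelial markers (9 of 10 in the table) summed to 7.08, 0.90 and 1.16 FPKM in FT cells and 2.97, 1.99 and 2.10 FPKM in WT cells. ERG, the most abundant, gave 6.03 of the FT_1 value, and 8 of the 9 were under 1 FPKM in every library. CDH5 was listed at 0 in FT_1 and WT_3, and KDR in all FT libraries. TEK was highest in FT_1, at 0.38 FPKM against 0.11–0.31 elsewhere. PECAM1 was 0.38 FPKM in FT_1, 0.09 and 0.10 in FT_2 and FT_3, and 0.46–0.76 in WT cells. Mural and smooth muscle markers (10 of 10 in the table) summed to 2524, 3831 and 3685 FPKM in FT cells and 1125, 1103 and 1231 FPKM in WT cells, led by ACTA2. This sum was above the WT range in all FT libraries, as NOTCH1 was, but the list did not move uniformly. Of its 10 genes 6 were called higher and 1, CSPG4, lower (log2 fold change -1.63, adjusted p 0.00110), where 20.1% and 18.9% of all tested genes were called. DES, 1 of the 6, had counts of 873, 463 and 413 in FT cells and 12, 0 and 0 in WT cells. It passed the filter through the FT libraries alone. In FT_1 RGS5 (0.03 FPKM) and MYH11 (0.07 FPKM) lay below all WT libraries, but in FT_2 and FT_3 both lay above them. RGS5 was 8.49 and 7.88 FPKM there against 4.21–5.15 in WT cells, and MYH11 1.58 and 1.46 against 0.12–0.18. Without FT_1, 8 of the 10 were called higher and 2 lower, beside 30.6% and 31.5% of all tested genes in that fit. DES was again among the 8. KCNJ8, 1 of the 2, had no count in FT_2 or FT_3 and so passed the filter through the WT libraries alone. The part of these genes in the NOTCH1 result was not tested. Among the other lists, adipocyte markers (4 of 5 in the table, led by FABP4) summed to 135–153 FPKM in WT cells and 2.88–15.3 FPKM in FT cells. FABP4, at 128–143 against 0.08–5.95 FPKM, made up this fall. It was the only marker called lower of the 3 tested (33.3%, beside 18.9% of all tested genes). PLIN1 was slightly higher in every FT library (1.31–1.49 against 1.23–1.27 FPKM) and LPL overlapped. Skeletal muscle markers (3 of 6, led by MYF5) summed to 0.07–0.61 FPKM in FT cells and 1.13–2.05 FPKM in WT cells, and immune markers (4 of 5, led by CD14) to 3.52–4.25 and 6.72–8.06. These 3 sums were lower in every FT library than in any WT library. Glial and neural crest markers (3 of 5, led by S100B) summed to 4.31–13.1 FPKM in FT libraries and 9.14–9.95 FPKM in WT libraries, while chondrocyte markers (4 of 5, led by SOX9) reached 0.31–2.29 and 0.84–1.06, so both overlapped. In the latter list the overlap came from SOX9 in FT_1 (2.19 FPKM), whereas ACAN was called lower (log2 fold change -2.26, adjusted p 0.0395). The part of these lists in the Notch results was not tested.

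The wider pathway was read from 11 lists with 84 genes, of which 82 were in the table and 74 were tested. The test called 26 of them higher in FT cells and 9 lower, shares of 35.1% and 12.2% beside 20.1% and 18.9% of all tested genes, and their median log2 fold change was 0.43 (0.03 over all). Leaving out JAG2 and HEYL, 24 of 72 (33.3%) were called higher and 9 (12.5%) lower, beside 19.9% and 18.5% of the tested genes that reached the count minimum in both groups. Without FT_1, 31 (41.9%) were called higher and 18 (24.3%) lower, beside 30.6% and 31.5% of all tested genes in that fit.

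Of the enzymes that modify and cut the receptors, a few moved. Among 5 genes of receptor glycosylation 1 rose and 1 fell (20% each, beside 20.1% and 18.9% of all tested genes). RFNG, a Fringe glycosyltransferase that alters which ligands a receptor answers, was 43.7, 52.5 and 56.5 FPKM in FT cells and 29.8, 28.3 and 31.4 FPKM in WT cells (log2 fold change 0.93 ± 0.13 (SE), adjusted p 0.00306). POFUT1, which adds the first fucose that Fringe enzymes extend, fell, with a log2 fold change of -0.55 ± 0.08 (SE) and an adjusted p of 0.00338. LFNG (-0.68) and POGLUT1 (0.18) did not pass, although LFNG was called without FT_1 (-1.02, adjusted p 0.00473, in a range up to 0.441). Nor did MFNG pass, which was 3.34 FPKM in FT_1 against 0.26 and 0.04 in FT_2 and FT_3. Without FT_1 the log2 fold changes of MFNG and POGLUT1 were -1.27 and -0.13.

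Of 9 cleavage genes, 2 (22.2%) rose and none fell, beside 20.1% and 18.9% of all tested genes, and without FT_1 2 were called higher and 2 lower, beside 30.6% and 31.5%. FURIN, the protease that cuts the receptor on its way to the surface, rose by a log2 fold change of 0.98 ± 0.08 (SE; adjusted p 0.00103), from 16.4–19.0 FPKM in WT cells to 30.8–32.9 FPKM in FT cells. NCSTN, a subunit of the gamma-secretase complex that frees the intracellular domain, rose by 0.74 ± 0.11 (SE; adjusted p 0.00415). The median of the 9 was 0.07. MIB2, 1 of the ubiquitin ligases that drive ligand endocytosis, rose by 0.63 ± 0.09 (SE; adjusted p 0.00346), whereas its relative MIB1 was at -0.36 (0.0545) and NEURL1B at 0.20 (0.847). MIB1 was called lower in 7 of 17 alternatives, DESeq2 and the fit without FT_1 among them (adjusted p 0.0407 and 0.00157, in a range up to 0.160). NEURL1 was at most 0.01 FPKM and was not tested.

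Of the 26 rises, 13 were in nuclear cofactors, so the 35.1% share of the pathway lists rested in large part on them. Whether these cofactors served Notch in these cells was not tested. Of 9 nuclear activators 5 were called higher and none lower, beside 20.1% and 18.9% of all tested genes, with a median log2 fold change of 0.58. Without FT_1, 6 were called higher and 2 lower, among them RBPJ, beside 30.6% and 31.5% of all tested genes. The acetyltransferase EP300, a coactivator recruited by Mastermind, was 14.8, 16.1 and 15.9 FPKM in FT cells and 8.34, 7.46 and 9.05 FPKM in WT cells (log2 fold change 1.07 ± 0.10 (SE), adjusted p 0.00122). RBPJ itself, named after its values were seen as the DNA-binding partner, was 42.7, 28.4 and 31.0 FPKM against 41.8, 36.1 and 40.2 FPKM, and its log2 fold change of -0.05 ± 0.16 (SE) did not pass. FT_2 and FT_3 lay below all WT libraries, and without FT_1 it was called lower (-0.23 ± 0.09 (SE), adjusted p 0.0392, in a range up to 0.997). Among 13 corepressors 8 (61.5%) were called higher and 1 (7.69%) lower, with a median of 0.81. Without FT_1 it was 9 and 1, against the shares of that fit given above. With the length trend removed it was 7 and 1 with a median of 0.59, where 20.8% and 21.5% of 11968 genes were called, and 5 and 0 for the activators. TLE2 and TLE4, Groucho corepressors used by HES proteins, rose by 1.82 ± 0.27 and 1.42 ± 0.17 (SE; adjusted p 0.00435 and 0.00224). TLE2 was again highest in FT_1, at 11.5 FPKM against 6.19 and 5.99 FPKM in FT_2 and FT_3, and its log2 fold change without FT_1 was 1.46.

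**Figure D4:**
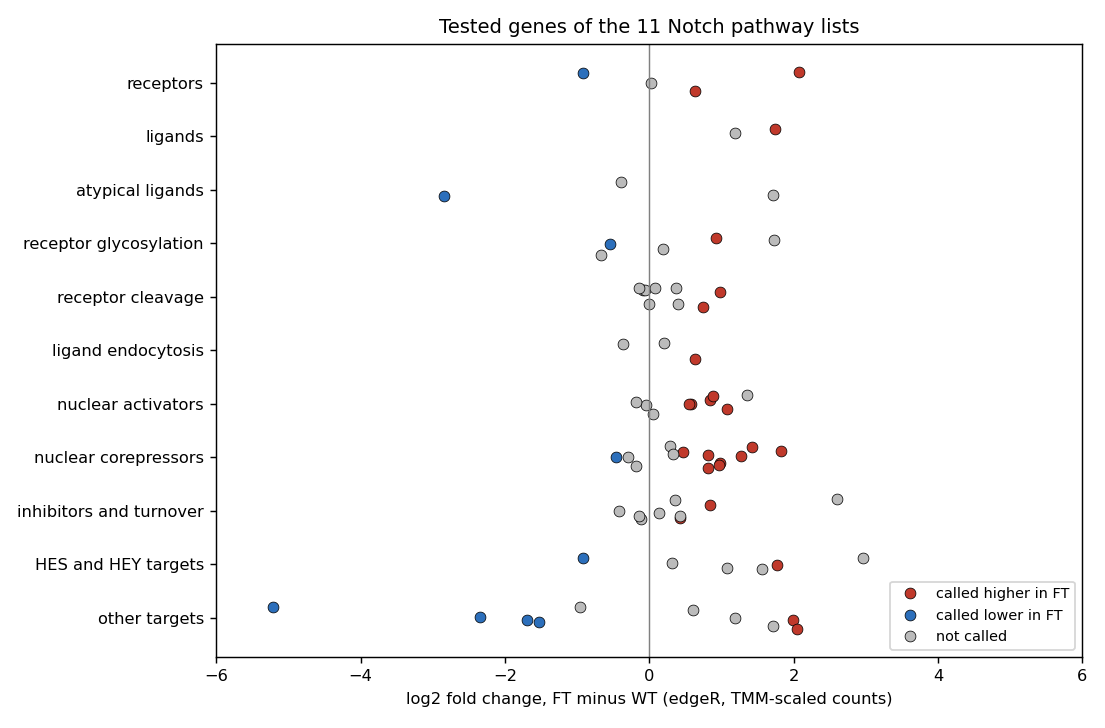
Log2 fold change (FT minus WT, edgeR) of each tested gene in the 11 pathway lists, with 1 point per gene, coloured by call; points are spread vertically for legibility and JAG2 is left out. The 13 corepressors include 8 genes called higher, while the other targets include 4 called lower, down to -5.21 for ID1.

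Among 11 inhibitors and turnover genes, 9 were tested and 2 (22.2%, beside 20.1% of all tested genes) were called higher, the ubiquitin ligases ITCH (log2 fold change 0.43, adjusted p 0.0184) and DTX2 (0.84, 0.0244). The call of ITCH was lost in 11 of 17 alternatives, with adjusted p up to 0.0769, and among the libraries it held without FT_1 only. DTX2 lost its call in 8 of 17 alternatives, among them those without WT_1 (0.0911), WT_2 (0.0916) or WT_3 (0.0688), in a range of 0.00155–0.0946. Of the 4 atypical ligands 3 were tested. DNER was lower in FT cells (log2 fold change -2.85 ± 0.82 (SE), adjusted p 0.0380), at 0.05, 0.19 and 0.02 FPKM against 0.72, 1.03 and 0.46 FPKM. This call ended without FT_3 (0.0633), WT_1 (0.103), WT_2 (0.122) or WT_3 (0.0727), in a range that began at 0.00175. DLK2 (-0.39) and EGFL7 (1.71) did not pass, although EGFL7 was called without WT_3 (adjusted p 0.0215, in a range up to 0.607), where the remaining WT libraries were listed at 0 FPKM, and DLK1 was at most 0.04 FPKM and was not tested.

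Other genes reported as Notch targets in some tissues went both ways, with 2 of 10 tested (20%) called higher and 4 (40%) lower, beside 20.1% and 18.9% of all tested genes. These genes also answer to other pathways, and the ID genes are known first as targets of BMP signalling. ID1, which encodes an inhibitor of bHLH factors, was 2.49, 1.45 and 0.98 FPKM in FT cells and 70.0, 79.4 and 54.7 FPKM in WT cells (log2 fold change -5.21 ± 0.39 (SE), adjusted p 7.79e-04). ID2 and ID3 were lower too, at -1.53 ± 0.23 and -1.69 ± 0.38 (SE; adjusted p 0.00433 and 0.0160), and ID3 narrowly missed the threshold without WT_1 (0.0517), WT_2 (0.0543) or WT_3 (0.0585). The Snail repressors split. SNAI1 rose by 1.99 ± 0.16 (SE; adjusted p 8.87e-04), with 10.9–16.4 FPKM in FT cells against 3.55–4.06 FPKM in WT cells, and SNAI2 had a log2 fold change of -2.34 ± 0.46 (SE; adjusted p 0.0104), with 7.73–26.5 against 96.8–116 FPKM. ACTA2, the smooth muscle actin that is also the leading mural marker above, rose by 2.04 ± 0.27 (SE; adjusted p 0.00278).

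For the 3 members with the smallest adjusted p, the most alike profiles were sought as the smallest Euclidean distance between centred log2 CPM profiles over the 6 libraries. Genes without a symbol, 2781 in the whole table, were left out of this search. NOTCH1 was nearest to PNPLA2 (0.25), BICRA (0.28) and THBS1 (0.31). HES1 was nearest to PSMA6 (0.13), SNRPD1 (0.15) and PTGES3 (0.18), and DLL1 to SYNC, MAP3K1 and MSI2 (0.27 each). These distances describe the 6 libraries only.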

How the data were processed

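RNA of bEFs from 3 FT and 3 WT fetuses was sequenced, 1 library per fetus. Per the study's methods, the authors used HISAT for alignment to a UCSC genome, Perl scripts to combine transcripts, and StringTie with edgeR for quantification. The submitters' processing notes list Bowtie 0.12.2, HISAT2 2.0 and StringTie 1.3.0. They name the mouse build mm8 only, whereas the table holds cattle Ensembl genes, so the build of the coordinates given above is not known. How reads of overlapping genes or strands were counted is not given in the sources used here. The authors deposited 1 raw count and 1 FPKM value per gene and library. The FPKM values the authors deposited are scaled by gene length and library total, and were used for levels.

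Counts were tested with edgeR 4.0.16 in R 4.3.3 (TMM factors, filterByExpr with its minimum count of 10, quasi-likelihood F test, Benjamini-Hochberg adjustment over all tested genes). The SE is the absolute log2 fold change divided by the root of F. The alternatives were other scalings, DESeq2 1.42.0, limma 3.58.1 on log2(FPKM + 1) or log2(FPKM + 0.1) with a mean FPKM of at least 0.5 or no filter, no count filter, a robust fit, the call rule of the study's methods (unadjusted p under 0.05, absolute log2 fold change over 1), a replicate block, leaving out each library and, added after the data were seen, removal of a length trend. Named genes were the 10 members, list genes called with an absolute log2 fold change over 1 or else the 2 with the smallest p per list, lists of 5 or fewer in full, and each marker list's most abundant gene by mean FPKM over all libraries. RBPJ, HEY2, PDGFRA, THY1, EPCAM, CDH1, CLDN4, KRT18, CDH5, KDR, TEK, PECAM1, CSPG4, RGS5, MYH11, DES, KCNJ8, PLIN1, LPL, ACAN and the gene WT1 were named after their values were seen. A gene that this rule picks is not reported here. The members and lists were chosen with earlier results of these data known. Promoter and protein sequences were not analysed here.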

Additional observations from a re-analysis of the deposited data

How the results depend on the processing

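Over 17 alternatives, the direction of NOTCH1, NOTCH2, JAG1, JAG2, DLL1, HES1, HEY1 and HEYL held wherever a value was obtained. Of 163 values for the 10 Notch genes, 120 kept direction and side of the threshold, 30 lost the call, 5 gained it and 8 changed sign. For 28 other pathway genes (26 picked by the naming rule, RBPJ and HEY2) the 462 values split into 403, 38, 11 and 10.

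The Notch genes called higher numbered 5, but 3 with limma on log2(FPKM + 1) or log2(FPKM + 0.1), 1 with limma and no filter, 2 with the length trend removed and 1–6 when 1 library was left out. Filtered limma and the length fit did not test JAG2 and HEYL. Under the call rule of the methods 0 Notch genes were called lower, 13 pathway genes higher (26 in the main test) and 5 lower (9). Over the whole table that rule called 1378 genes higher and 1208 lower, against 2714 and 2547 in the main test. On log2(FPKM + 1), limma called 1744 higher and 3622 lower with no filter, and 1837 and 3573 with the filter. With 1 library left out, 1516–4215 genes were called higher and 1531–4337 lower, and 6–18 pathway genes lower.

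The replicate block left 2 Notch genes called higher and 1799 genes of the table, and MFNG turned to -0.232 (log2). The numbers do not pair the samples, which came from different fetuses: deviations of libraries with the same number correlated at -0.0010, -0.0198 and 0.0184.

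The log2 fold change of NOTCH3 was -0.121 with total count scaling, -0.067, -0.125 and -0.067 in limma with a pseudocount of 1, of 0.1 and with no filter, and -0.302 with the length trend removed. POGLUT1 was at -0.010, -0.021 and -0.010 in the same limma fits, and RBPJ at 0.033 with the length trend removed. With 1 library left out, the log2 fold changes ranged over -0.101 to 0.118 for NOTCH3, -0.175 to 0.001 for NUMB, -0.127 to 0.368 for POGLUT1, -1.270 to 2.291 for MFNG, -0.325 to 0.807 for NEURL1B and -0.234 to 0.059 for RBPJ. RBPJ changed sign without FT_2 and the others without FT_1 (NOTCH3 and NEURL1B also without WT_2). The cause was not tested. JAG2, HEY1 and HEYL each had 4 or fewer counts in at least 1 WT library.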
